A study of Rattus norvegicus with 12 samples.

Results

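Genes of the cell cycle and of DNA replication were followed in the cortex of young rats after neonatal hypoxia-ischemia, with and without the free radical scavenger MCI-186 (edaravone). The set held 35 genes chosen by symbol: 11 of DNA replication and nucleotide supply, 6 cyclins and kinases of the G1 and S phases, and 18 of mitosis. Of these, 25 had at least 1 array probe that a RefSeq accession named, and all 25 passed the filter on dim probes, among 9278 named genes tested in all. They comprised 8 replication genes, 6 G1 and S genes and 11 mitosis genes. Mcm3, Mcm4, Mcm5, Top2a, Mki67, Bub1b, Kif11, Cdca3, Cdkn3 and Nusap1 were not analysed here, because no array probe could be named for them through the RefSeq accessions.

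There were 4 groups of 3 Wistar pups, with 1 array per pup. In the Rice + MCI-186 and Rice + saline groups the left carotid artery was cut at 7 days of age and the pups then breathed 8% oxygen for 1 h. The Control + MCI-186 and Control + saline groups were not exposed to this insult. MCI-186 was injected into the abdomen at 9 mg per kg in saline, and the other pups received 100 µl of saline. The injured pups were injected directly after the hypoxia and once more soon after. Cortex was taken from the ligated side of injured pups and from the same side of controls. The pups are labelled as 2 weeks old, and the interval from injury to collection is not stated otherwise.

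A dividing cell passes from G1 into S phase when cyclin D with Cdk4 and cyclin E with Cdk2 free the E2F factors, which drive the genes for DNA synthesis. Mitosis follows, driven by Cdk1 with the B cyclins, by the Polo and Aurora kinases and by the ubiquitin ligase that Cdc20 activates. In the cortex shortly after birth most neurons have stopped dividing, while glial progenitors, microglia and vascular cells can still divide.

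Expression was measured on 1-colour Agilent whole-genome rat arrays. The signal is given as a percent of the 75th percentile signal of the same array, so that 100% is the level at which 3 in 4 spots are dimmer. Between 65.1% and 73.7% of the spots were well above background, and arrays of 1 group correlated at 0.982 to 0.995 over probes. The 10 neuron markers measured were well above background on all 12 arrays, as were 24 of the 25 cell cycle genes. The other gene, Aurkb, missed this on 1 Control + MCI-186 array. All 3 arrays of a group came from the same slide and no slide held 2 groups, so slide and group cannot be told apart. The p-values are set against the spread between pups. In bulk cortex, more dividing cells and more RNA per cell cannot be told apart.

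Most of the cell cycle genes were higher in injured cortex, in both injection arms. In MCI-186 pups, 22 of the 25 rose in Rice against Control pups and 1, the cyclin E gene Ccne1, fell, by limma with Benjamini-Hochberg adjustment over all features and a threshold of 0.05. Of all named genes, 25.5% rose and 31.5% fell in that comparison. In saline pups, 20 of the 25 rose and Ccne1 fell, against 24.9% higher and 30.4% lower among all named genes. The set was chosen with earlier results of these data known, so a high share among its genes is no test of the set. Tyms and Ccnd2 passed in neither arm, while Birc5 and Tpx2 passed only in MCI-186 pups. The median log2 change over the 25 genes was 1.20 in MCI-186 pups and 1.02 in saline pups, against -0.08 and -0.09 over all named genes. All 3 injured pups lay above all 3 controls for 22 of the 25 genes in the MCI-186 arm and 21 in the saline arm. Among all named genes the shares were 29.9% and 28.2%. Of the 25 genes 10 had other probes, 11 in all, and each had the same sign of change as the probe used, in both arms. The other probes of Pcna, Rrm1 and Rrm2 each missed the threshold in at least 1 arm. Without Rice + saline pup 3, the highest of its group for 23 of these genes, 17 genes rose in the saline arm, and without Rice + MCI-186 pup 1, 20 rose in the MCI-186 arm.

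**Figure D1:**
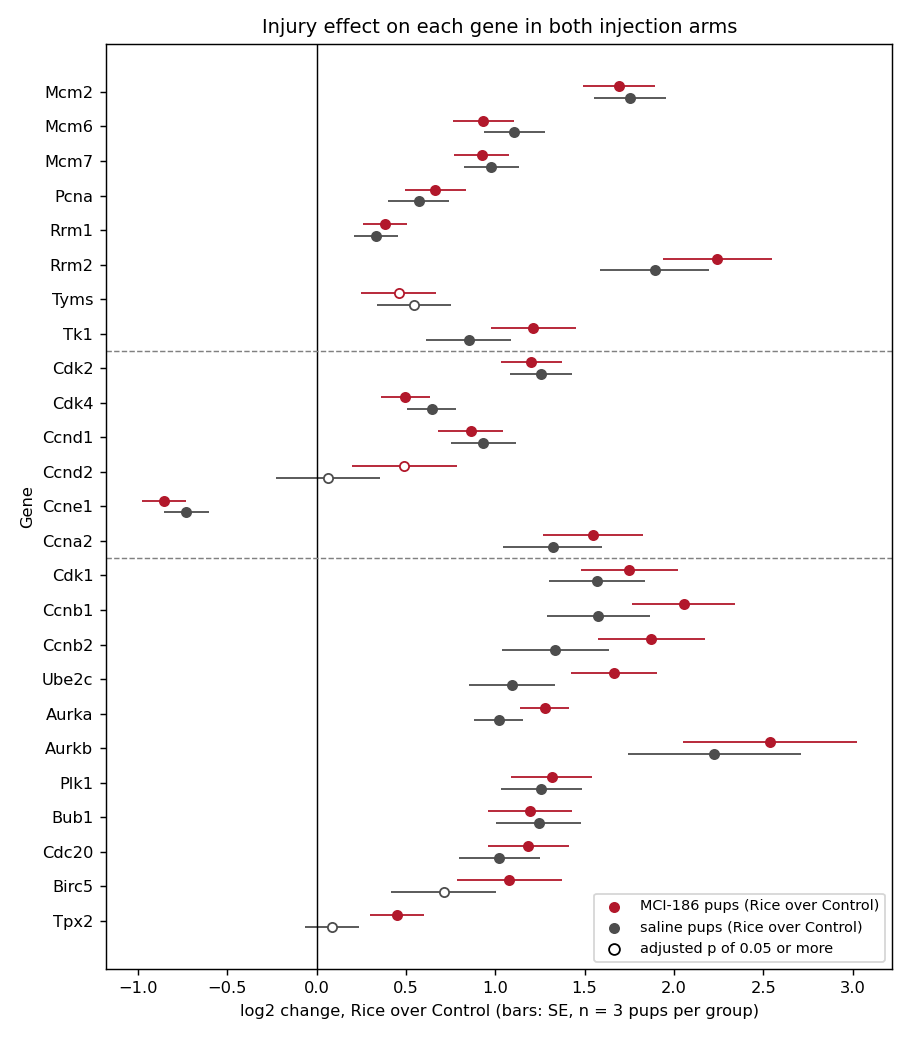
Log2 change of each gene, Rice over Control, in MCI-186 pups (red) and saline pups (grey), with bars for the standard error and open circles for limma adjusted p of 0.05 or more (n = 3 pups per group). Dashed lines separate replication, G1 and S, and mitosis genes; the points lie right of 0 for all genes except Ccne1.

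The replication genes divide into the Mcm helicase, the sliding clamp Pcna and the enzymes that supply deoxynucleotides. Mcm2 is 1 subunit of the helicase that opens DNA at replication origins. Its signal was 78.9, 54.4 and 66.1% in Rice + MCI-186 pups against 20.6, 19.1 and 21.3% in Control + MCI-186 pups, and 58.8, 57.5 and 97.5% in Rice + saline pups against 22.9, 19.4 and 19.4% in Control + saline pups. Every injured pup lay above every control, and the controls were close together. The log2 change of Mcm2 was 1.69 ± 0.20 in MCI-186 pups (SE, n = 3 per group, limma adjusted p = 0.000137) and 1.75 ± 0.20 in saline pups (adjusted p = 0.000127), and a second Mcm2 probe gave 1.47 in MCI-186 pups and 1.55 in saline pups. The helicase subunits Mcm6 and Mcm7 rose less. Mcm6 averaged 75.1 ± 14.8% in Rice + MCI-186 pups and 38.8 ± 1.09% in Control + MCI-186 pups, and 78 ± 17.7% in Rice + saline pups and 35.7 ± 1.68% in Control + saline pups (SD, n = 3 each), a log2 change of 0.93 ± 0.17 in MCI-186 pups (SE, limma adjusted p = 0.00136) and 1.11 ± 0.17 in saline pups (adjusted p = 0.000649). Mcm7 averaged 85 ± 10.5% in Rice + MCI-186 pups and 44.6 ± 2.29% in Control + MCI-186 pups, and 81.3 ± 18.9% in Rice + saline pups and 40.6 ± 1.46% in Control + saline pups (SD, n = 3 each), a log2 change of 0.92 ± 0.15 in MCI-186 pups (SE, limma adjusted p = 0.000867) and 0.98 ± 0.15 in saline pups (adjusted p = 0.000748). Injured and control pups did not overlap for either gene in either arm.

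The promoters of Mcm2 and Mcm6 are shown because both hold a word that E2F factors are known to bind. The windows run from 250 bases before to 50 bases after the gene's start, 5′ to 3′ on the gene's strand, from RefSeq's GRCr8 assembly (chr4:122918045-122918344, minus strand for Mcm2, chr13:42404303-42404602, minus strand for Mcm6). Capitals mark every match on either strand to an E2F word (TTTGGCGC, TTTCCCGC, TTTGCCGC or TTTCGCGC), to the CHR word TTTGAA, known from mitosis genes, and to the CCAAT box.
Mcm2: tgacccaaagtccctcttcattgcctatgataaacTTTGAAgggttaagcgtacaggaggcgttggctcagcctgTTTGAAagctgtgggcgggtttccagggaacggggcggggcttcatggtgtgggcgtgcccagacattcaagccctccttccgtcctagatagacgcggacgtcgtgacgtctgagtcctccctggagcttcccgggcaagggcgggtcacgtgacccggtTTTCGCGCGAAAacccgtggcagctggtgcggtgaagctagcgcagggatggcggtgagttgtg
Mcm6: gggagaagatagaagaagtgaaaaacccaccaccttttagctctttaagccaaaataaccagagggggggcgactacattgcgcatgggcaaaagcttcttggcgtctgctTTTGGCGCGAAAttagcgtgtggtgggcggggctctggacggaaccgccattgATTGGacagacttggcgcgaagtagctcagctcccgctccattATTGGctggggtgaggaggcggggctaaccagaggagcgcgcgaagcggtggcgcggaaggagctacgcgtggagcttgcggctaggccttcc
In both windows an E2F word overlaps a second match on the opposite strand, so the capitals run past a single word. Mcm2 also holds the CHR word, at 2 places, and Mcm6 holds the CCAAT box on the opposite strand at 2 places.

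Pcna, the clamp that holds DNA polymerases on the template, averaged 264 ± 36.8% in Rice + MCI-186 pups and 165 ± 10.4% in Control + MCI-186 pups, and 285 ± 74% in Rice + saline pups and 188 ± 10.7% in Control + saline pups (SD, n = 3 each). All injured pups lay above all controls of their arm, and the log2 change of Pcna was 0.67 ± 0.17 in MCI-186 pups (SE, limma adjusted p = 0.00783) and 0.57 ± 0.17 in saline pups (adjusted p = 0.0173). A second, dimmer Pcna probe gave 0.39 in MCI-186 pups (limma adjusted p = 0.0752) and 0.46 in saline pups (adjusted p = 0.0409), so it did not pass in MCI-186 pups. Without Rice + saline pup 3 the saline value was 0.369 with a limma adjusted p of 0.0513.

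Ribonucleotide reductase makes deoxynucleotides from ribonucleotides and has a large subunit, Rrm1, and a small subunit that cycles with S phase, Rrm2. Rrm2 had signals of 24.9, 10.2 and 20.7% in Rice + MCI-186 pups against 3.67, 3.65 and 3.71% in Control + MCI-186 pups, and 15.5, 15.6 and 25.6% in Rice + saline pups against 5.33, 4.05 and 5.62% in Control + saline pups. Every injured pup was above every control, and the injured pups spread widely, with Rice + MCI-186 pup 2 lowest. The log2 change of Rrm2 was 2.24 ± 0.31 in MCI-186 pups (SE, n = 3 per group, limma adjusted p = 0.000299) and 1.89 ± 0.31 in saline pups (adjusted p = 0.000856), and a second probe gave 1.29 in MCI-186 pups (adjusted p = 0.00303) and 0.64 in saline pups (adjusted p = 0.0718), where it did not pass. That dimmer probe was well above background on 0 of 3 Control + MCI-186 arrays. Rrm1 had signals of 97.4, 75.8 and 86.1% in Rice + MCI-186 pups against 66.6, 63 and 68% in Control + MCI-186 pups, and 78.9, 76.7 and 96.3% in Rice + saline pups against 60.1, 70.4 and 68.7% in Control + saline pups. The gap between injured and control pups was narrow, although they did not overlap. Rrm1 changed by 0.39 ± 0.12 in MCI-186 pups (SE, limma adjusted p = 0.023) and 0.33 ± 0.12 in saline pups (adjusted p = 0.0431), and its call was lost in 14 of 21 alternative analyses in the saline arm and 4 of 21 in the MCI-186 arm. The mean of the 3 Rrm1 probes changed by 0.158 in saline pups, with a limma adjusted p of 0.267. Singly, the dimmer Rrm1 probes changed by 0.12 and 0.02 in saline pups (limma adjusted p = 0.39 and 0.91). In MCI-186 pups they changed by 0.31 and 0.30 (limma adjusted p = 0.0378 and 0.0807).

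Tyms and Tk1 supply thymidine nucleotides, by synthesis and by salvage. Tyms, thymidylate synthase, had signals of 9.51, 6.01 and 9.51% in Rice + MCI-186 pups against 6.57, 4.91 and 6.49% in Control + MCI-186 pups, and 8.97, 7.64 and 11.4% in Rice + saline pups against 6.91, 6.4 and 5.68% in Control + saline pups. Rice + MCI-186 pup 2 lay among its controls, while the saline groups did not overlap. The change in Tyms was 0.46 ± 0.21 in MCI-186 pups (SE, limma adjusted p = 0.0874) and 0.55 ± 0.21 in saline pups (adjusted p = 0.0503), the second just over the threshold. Tyms passed in 2 of 21 alternative analyses in the MCI-186 arm and 8 of 21 in the saline arm. Without Rice + MCI-186 pup 2, Tyms passed in both arms, at 0.680 in MCI-186 pups and 0.546 in saline pups (limma adjusted p = 0.0116 and 0.0204). Tk1, thymidine kinase, averaged 18.7 ± 4.34% in Rice + MCI-186 pups and 7.98 ± 1.08% in Control + MCI-186 pups, and 16.6 ± 3.81% in Rice + saline pups and 9.24 ± 2.28% in Control + saline pups (SD, n = 3 each) and rose by 1.21 ± 0.24 in MCI-186 pups (SE, limma adjusted p = 0.00205) and 0.85 ± 0.24 in saline pups (adjusted p = 0.0133). Without Rice + saline pup 3 the change in Tk1 in the saline arm was 0.669 with a limma adjusted p of 0.0557.

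**Figure D2:**
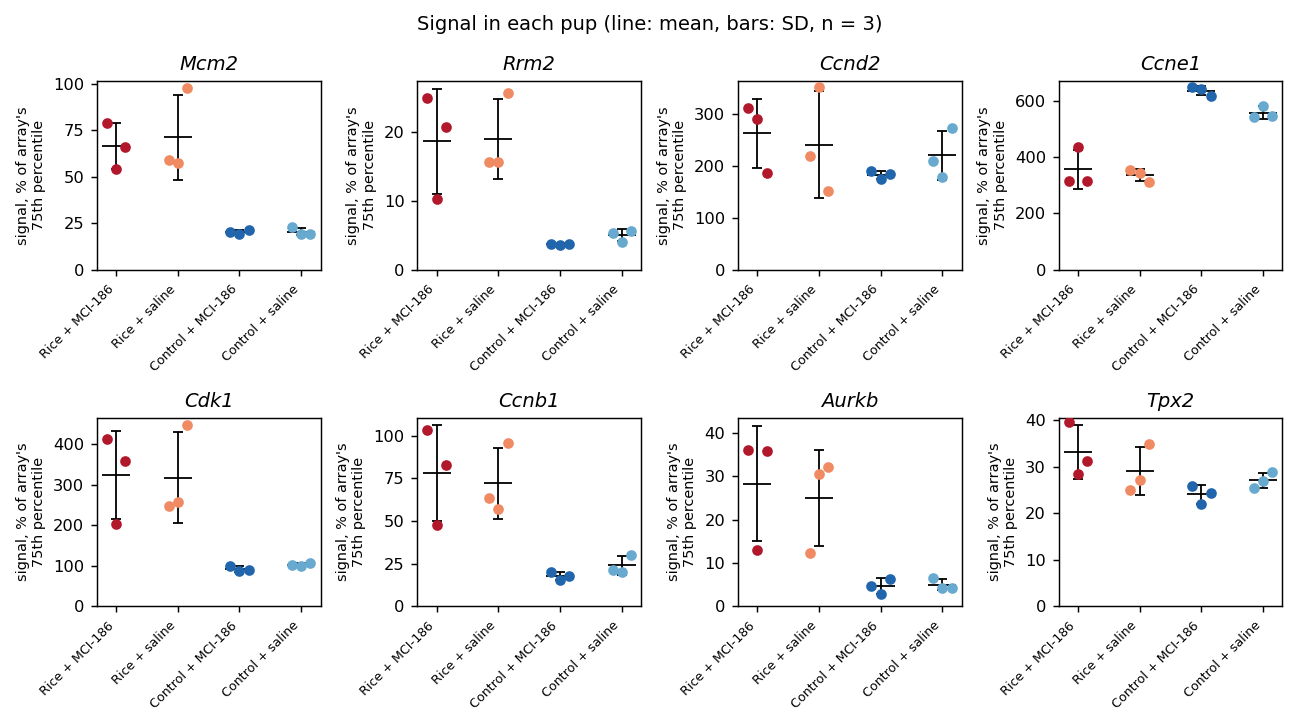
Signal of 8 genes in each pup, in percent of the array's 75th percentile on a linear axis from 0, with a line for the mean and bars for the SD (n = 3). Mcm2, Rrm2, Cdk1, Ccnb1 and Aurkb were higher in all injured pups, Ccne1 was lower, and the Ccnd2 groups overlapped.

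The genes that act between G1 and S did not move as 1 group. Of 6, Cdk2, Cdk4, Ccnd1 and Ccna2 rose in both arms, Ccne1 fell in both, and Ccnd2 passed in neither. Cdk2, the kinase partner of cyclins E and A, had signals of 116, 74.3 and 88% in Rice + MCI-186 pups against 40.8, 39.5 and 38.9% in Control + MCI-186 pups, and 85.1, 89.2 and 114% in Rice + saline pups against 35.2, 39.8 and 45.6% in Control + saline pups. Injured and control pups did not overlap, and the log2 change of Cdk2 was 1.20 ± 0.17 in MCI-186 pups (SE, n = 3 per group, limma adjusted p = 0.000385) and 1.26 ± 0.17 in saline pups (adjusted p = 0.00035). A second Cdk2 probe gave 1.00 in MCI-186 pups and 1.20 in saline pups. Cdk4, which pairs with D cyclins, averaged 303 ± 50.1% in Rice + MCI-186 pups and 212 ± 6.86% in Control + MCI-186 pups, and 272 ± 39.9% in Rice + saline pups and 173 ± 2.68% in Control + saline pups (SD, n = 3 each) and rose by 0.50 ± 0.14 in MCI-186 pups (SE, limma adjusted p = 0.0111) and 0.64 ± 0.14 in saline pups (adjusted p = 0.00331). Cyclin D1, Ccnd1, which links growth factor signals to Cdk4, averaged 486 ± 93.7% in Rice + MCI-186 pups and 265 ± 31.3% in Control + MCI-186 pups, and 469.6 ± 105% in Rice + saline pups and 242 ± 9.52% in Control + saline pups (SD, n = 3 each) and rose by 0.86 ± 0.18 in MCI-186 pups (SE, limma adjusted p = 0.00295) and 0.93 ± 0.18 in saline pups (adjusted p = 0.00221).

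Cyclin D2, Ccnd2, also pairs with Cdk4, and its pups were spread more widely. Ccnd2 had signals of 312, 289 and 187% in Rice + MCI-186 pups against 189, 174 and 184% in Control + MCI-186 pups, and 218, 352 and 151% in Rice + saline pups against 209, 179 and 272% in Control + saline pups. The injured pups of each arm ranged from below a control to above all of them. Its log2 change was 0.49 ± 0.29 in MCI-186 pups (SE, limma adjusted p = 0.177) and 0.06 ± 0.29 in saline pups (adjusted p = 0.871). Unlike most of the genes, Ccnd2 was lowest in Rice + saline pup 3 among the Rice + saline pups.

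Cyclin E1, Ccne1, activates Cdk2 at the entry into S phase. Ccne1 had signals of 316, 436 and 316% in Rice + MCI-186 pups against 648, 642 and 618% in Control + MCI-186 pups, and 355, 342 and 312% in Rice + saline pups against 541, 583 and 546% in Control + saline pups. Every injured pup lay below every control, and the gene fell by 0.85 ± 0.12 in MCI-186 pups and fell by 0.73 ± 0.12 in saline pups on the log2 scale (SE, n = 3 per group, limma adjusted p = 0.000438 in MCI-186 pups and 0.00116 in saline pups). A second Ccne1 probe had the same sign, at -0.51 in MCI-186 pups and -0.63 in saline pups. The call for Ccne1 was kept in all 21 alternative analyses of each arm. Cyclin A2, Ccna2, which works in S phase and G2, went the other way, at 61.6, 28.1 and 53.2% in Rice + MCI-186 pups against 16.5, 14.2 and 15.8% in Control + MCI-186 pups, and 38.5, 33.6 and 60.3% in Rice + saline pups against 17.8, 16.5 and 17.1% in Control + saline pups. All injured pups were above all controls, with log2 changes for Ccna2 of 1.55 ± 0.28 in MCI-186 pups (SE, limma adjusted p = 0.00132) and 1.32 ± 0.28 in saline pups (adjusted p = 0.00333). A second, dimmer Ccna2 probe was well above background on all 6 injured arrays and on 0 of the 6 control arrays.

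Among mitosis genes, all 11 rose in MCI-186 pups and 9 of 11 rose in saline pups. Cdk1, the kinase that starts mitosis, had signals of 411, 202 and 358% in Rice + MCI-186 pups against 100.3, 86.7 and 89.7% in Control + MCI-186 pups, and 248, 257 and 446% in Rice + saline pups against 102, 99.4 and 108% in Control + saline pups. All injured pups lay above all controls, with no overlap. Cdk1 changed by 1.75 ± 0.27 in MCI-186 pups (SE, n = 3 per group, limma adjusted p = 0.000583) and 1.57 ± 0.27 in saline pups (adjusted p = 0.00119). Its partner cyclin B1, Ccnb1, had signals of 103, 47.8 and 83% in Rice + MCI-186 pups against 20.2, 15.7 and 18% in Control + MCI-186 pups, and 63.5, 57 and 95.9% in Rice + saline pups against 21.6, 20.00 and 30.3% in Control + saline pups. Again no injured pup overlapped a control, and Ccnb1 changed by 2.05 ± 0.29 in MCI-186 pups (SE, limma adjusted p = 0.000353) and 1.58 ± 0.29 in saline pups (adjusted p = 0.00164). Cyclin B2, Ccnb2, averaged 28.1 ± 11.4% in Rice + MCI-186 pups and 7.23 ± 1.05% in Control + MCI-186 pups, and 25.1 ± 6.62% in Rice + saline pups and 9.76 ± 0.721% in Control + saline pups (SD, n = 3 each) and rose by 1.87 ± 0.30 in MCI-186 pups (SE, limma adjusted p = 0.000713) and 1.33 ± 0.30 in saline pups (adjusted p = 0.0046).

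The Aurora kinases separate the chromosomes, Aurka at the spindle poles and Aurkb at the centromeres and midzone. Aurkb had signals of 36.1, 13.1 and 35.8% in Rice + MCI-186 pups against 4.81, 2.8 and 6.42% in Control + MCI-186 pups, and 12.3, 30.6 and 32% in Rice + saline pups against 6.53, 4.27 and 4.23% in Control + saline pups. Rice + MCI-186 pup 2 and Rice + saline pup 1 lay well below the other pups of their groups, and all injured pups were above all controls. With a log2 change of 2.54 ± 0.48 in MCI-186 pups (SE, limma adjusted p = 0.00182) and 2.23 ± 0.48 in saline pups (adjusted p = 0.00396), Aurkb had the highest fitted change and the highest standard error of the 25 genes. Aurka averaged 54.1 ± 9.37% in Rice + MCI-186 pups and 22.1 ± 1.14% in Control + MCI-186 pups, and 50.04 ± 6.17% in Rice + saline pups and 24.6 ± 1.47% in Control + saline pups (SD, n = 3 each), with tight groups and a log2 change of 1.28 ± 0.14 in MCI-186 pups (SE, limma adjusted p = 7.22e-05) and 1.02 ± 0.14 in saline pups (adjusted p = 0.000308).

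Plk1, the Polo kinase of mitotic entry and exit, averaged 179.8 ± 49% in Rice + MCI-186 pups and 70.8 ± 11% in Control + MCI-186 pups, and 172 ± 39.2% in Rice + saline pups and 71.3 ± 9.51% in Control + saline pups (SD, n = 3 each), a log2 change of 1.32 ± 0.23 in MCI-186 pups (SE, limma adjusted p = 0.00107) and 1.26 ± 0.23 in saline pups (adjusted p = 0.00155). A second Plk1 probe gave 1.44 in MCI-186 pups and 1.38 in saline pups. Bub1, a kinase of the spindle checkpoint, averaged 75.1 ± 22.1% in Rice + MCI-186 pups and 31.7 ± 1.22% in Control + MCI-186 pups, and 76.3 ± 23.4% in Rice + saline pups and 31.4 ± 0.689% in Control + saline pups (SD, n = 3 each), a log2 change of 1.20 ± 0.24 in MCI-186 pups (SE, limma adjusted p = 0.00212) and 1.24 ± 0.24 in saline pups (adjusted p = 0.00196). The injured groups of both genes lay wholly above their controls. Cdc20 ends the checkpoint by activating the anaphase-promoting complex, and Ube2c is the ubiquitin-conjugating enzyme of that complex. Cdc20 changed by 1.18 ± 0.23 in MCI-186 pups (SE, limma adjusted p = 0.00182) and 1.02 ± 0.23 in saline pups (adjusted p = 0.00432), and Ube2c by 1.66 ± 0.24 in MCI-186 pups (SE, limma adjusted p = 0.000412) and 1.09 ± 0.24 in saline pups (adjusted p = 0.00411). Both were higher in all injured pups than in all controls of their arm.

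Birc5 and Tpx2 were the mitosis genes that did not pass in saline pups. Birc5, survivin, a subunit of the complex that carries Aurora B, had signals of 108, 51.7 and 90.8% in Rice + MCI-186 pups against 43.4, 36.7 and 34% in Control + MCI-186 pups, and 53.6, 61.1 and 79.1% in Rice + saline pups against 54.3, 37.9 and 28.7% in Control + saline pups. The saline groups overlapped, since Control + saline pup 1 was slightly above Rice + saline pup 1, and the MCI-186 groups did not. Birc5 changed by 1.08 ± 0.29 in MCI-186 pups (SE, limma adjusted p = 0.0109) and 0.71 ± 0.29 in saline pups (adjusted p = 0.0653). Tpx2, which activates Aurora A on the spindle, had signals of 39.7, 28.6 and 31.2% in Rice + MCI-186 pups against 25.9, 22 and 24.3% in Control + MCI-186 pups, and 25.1, 27.3 and 34.9% in Rice + saline pups against 25.5, 27 and 28.8% in Control + saline pups. Tpx2 overlapped in the saline arm and not in the MCI-186 arm, with log2 changes of 0.45 ± 0.15 in MCI-186 pups (SE, limma adjusted p = 0.0284) and 0.09 ± 0.15 in saline pups (adjusted p = 0.647). The difference between the arms was itself tested and did not pass for either gene, at 0.37 ± 0.41 for Birc5 and 0.36 ± 0.21 for Tpx2 (SE, limma adjusted p = 1 for each). Without Rice + MCI-186 pup 1 the change in Tpx2 in the MCI-186 arm was 0.313 with a limma adjusted p of 0.115. It also missed the threshold without Control + MCI-186 pup 2 (0.386, limma adjusted p = 0.0979) or pup 3 (0.459, limma adjusted p = 0.063). Birc5 passed in saline pups without Control + saline pup 1, at 0.950 with a limma adjusted p of 0.0293, and without Rice + MCI-186 pup 2, at 0.711 with 0.0275.

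The promoters of Plk1, Cdc20 and Cdk1 are shown for comparison with the Mcm windows, since they hold the CHR word and the CCAAT box. They have the same window, source and capitals, at chr1:186147408-186147707, plus strand for Plk1, chr5:137255750-137256049, minus strand for Cdc20 and chr20:19265043-19265342, plus strand for Cdk1.
Plk1: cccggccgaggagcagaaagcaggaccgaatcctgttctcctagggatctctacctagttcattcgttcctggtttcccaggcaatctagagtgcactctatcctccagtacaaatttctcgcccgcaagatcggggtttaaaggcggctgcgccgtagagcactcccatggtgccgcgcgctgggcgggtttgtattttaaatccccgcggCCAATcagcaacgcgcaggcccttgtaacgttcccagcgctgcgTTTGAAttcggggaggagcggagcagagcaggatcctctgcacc
Cdc20: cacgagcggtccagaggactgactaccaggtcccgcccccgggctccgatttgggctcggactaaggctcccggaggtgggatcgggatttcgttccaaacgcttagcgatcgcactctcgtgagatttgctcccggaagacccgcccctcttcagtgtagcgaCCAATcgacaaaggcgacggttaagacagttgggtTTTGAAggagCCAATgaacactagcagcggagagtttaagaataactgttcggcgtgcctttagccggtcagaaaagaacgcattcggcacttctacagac
Cdk1: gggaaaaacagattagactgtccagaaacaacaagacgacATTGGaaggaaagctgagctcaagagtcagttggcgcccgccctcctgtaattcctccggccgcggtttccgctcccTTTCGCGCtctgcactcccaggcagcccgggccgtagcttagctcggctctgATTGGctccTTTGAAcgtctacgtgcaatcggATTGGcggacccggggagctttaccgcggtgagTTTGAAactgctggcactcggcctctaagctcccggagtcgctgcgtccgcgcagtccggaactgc
Plk1 and Cdc20 held no E2F word in this window, and Cdk1 held the E2F word as well as the CHR word.

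The words were counted over genes with a RefSeq window, on both strands. A listed gene counted once, if any of its windows held the word. The shares of all 33469 windows are per window, so the measures are not quite alike. An E2F word stood in 6 of 9 replication genes (66.67%) and in 1 of 15 mitosis genes (6.67%), against 2.14% of all windows. The CHR word stood in 1 of 9 replication genes (11.11%) and in 10 of 15 mitosis genes (66.67%), against 18.35% of all windows. The CCAAT box was present in 6 of 9 and 12 of 15, against 37.49% of all windows. Among further genes of DNA replication, 20 of 44 held an E2F word and 8 held the CHR word. In further mitosis genes, 2 of 54 held an E2F word and 38 held the CHR word. These counts include genes whose expression was not analysed here. The words were also set beside the response of the measured genes, with no test. Of 19 measured replication genes with an E2F word, 9 rose in MCI-186 pups and 10 in saline pups, and of 22 without one, 10 rose in each arm. Of 27 measured mitosis genes with the CHR word, 20 rose in MCI-186 pups and 19 in saline pups, and of 8 without it, 5 rose in each arm. The shares that rose among all named genes were 25.5% in MCI-186 pups and 24.9% in saline pups. The counts by word were not limited to genes well above background on all 12 arrays. The filter keeps a gene that is bright only in injured pups. A match is a description of the letters and not of binding.

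Set side by side, the mitosis genes had higher median changes than the replication genes, and the ranges of the lists overlapped. The median log2 change of the 11 mitosis genes was 1.32 in MCI-186 pups and 1.24 in saline pups, with ranges of 0.45 to 2.54 and 0.09 to 2.23. That of the 8 replication genes was 0.93 and 0.91, with ranges of 0.39 to 2.24 and 0.33 to 1.89. The 6 G1 and S genes had medians of 0.68 and 0.79. With another background correction of the arrays the mitosis median in saline pups was 0.884, below the replication median of 0.91 in the main analysis. The replication median under that correction is not reported here, so the order of the lists under it is not shown. No test was made of the difference between lists.

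Wider lists of the same processes showed a larger gap. Of 33 further mitosis genes that passed the filter, 22 rose and 1 fell in each arm, with medians of 1.20 in MCI-186 pups and 1.10 in saline pups. Of 40 further replication genes, 17 rose and 2 fell in MCI-186 pups and 18 rose and 1 fell in saline pups, with medians of 0.23 and 0.31. Among all named genes 25.5% rose and 31.5% fell in MCI-186 pups, and 24.9% rose and 30.4% fell in saline pups. The shares that rose were 66.7% of the further mitosis genes in each arm, and 42.5% and 45% of the further replication genes. The filter keeps a gene that is bright only in injured pups. The counts above therefore include genes whose rise the filter favoured. On genes well above background on all 12 arrays, the medians were 0.81 and 0.80 for 24 mitosis genes and 0.20 and 0.28 for 38 replication genes. Of these 24 mitosis genes 15 rose in MCI-186 pups and 14 in saline pups. Of these 38 replication genes 15 and 16 rose.

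**Figure D3:**
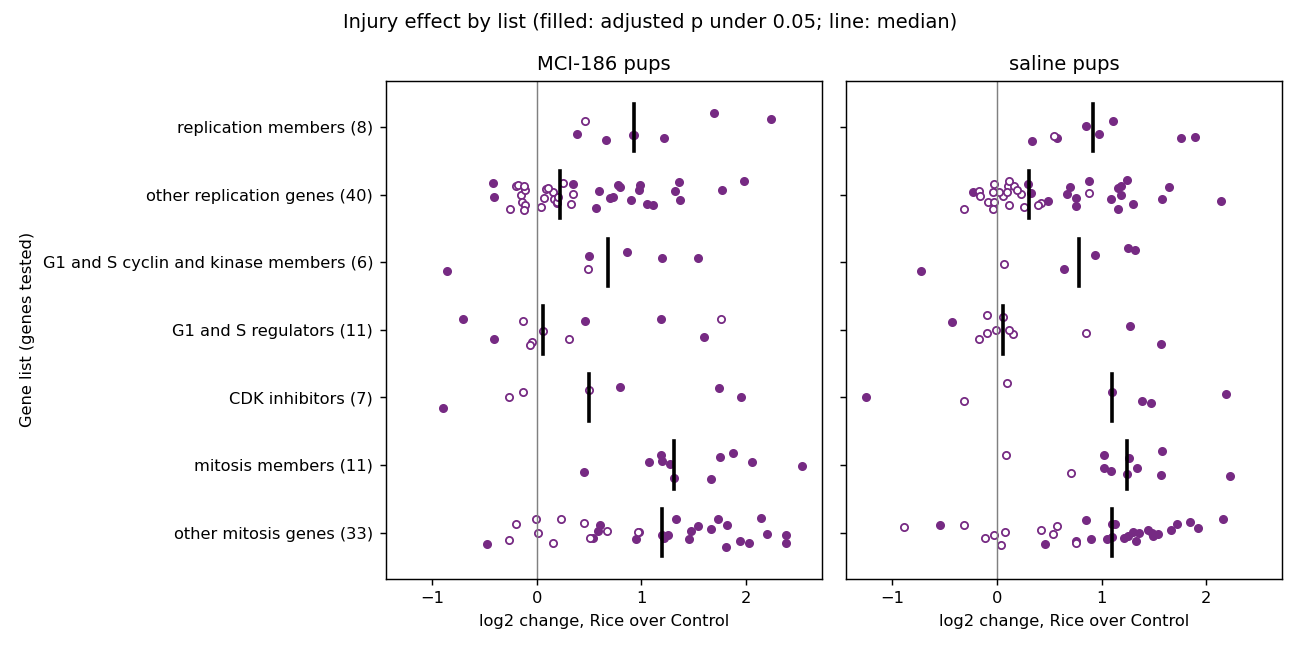
Log2 change, Rice over Control, of each gene in 7 lists, in MCI-186 pups (left) and saline pups (right); filled points passed limma's adjusted threshold and the bars are medians. The medians of the mitosis genes and the further mitosis genes are 1.32 and 1.20 on the left and 1.24 and 1.10 on the right; those of the replication genes and the further replication genes are 0.93 and 0.23, and 0.91 and 0.31.

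The further replication genes with the lowest adjusted p in either arm were Mcm10, Ung, Cdt1, Pold1, Pole and Gins2. Mcm10, which helps to start the helicase, was well above background on 1 of 3 Control + MCI-186 and 2 of 3 Control + saline arrays, and on all injured arrays, so its fitted changes rest on partly dim controls. Mcm10 changed by 1.98 ± 0.28 in MCI-186 pups (SE, limma adjusted p = 0.000341) and 2.14 ± 0.28 in saline pups (adjusted p = 0.000259). The licensing factor Cdt1 changed by 1.36 ± 0.24 in MCI-186 pups (limma adjusted p = 0.00127) and 1.65 ± 0.24 in saline pups (adjusted p = 0.00053) and the helicase cofactor Gins2 by 1.77 ± 0.27 in MCI-186 pups (limma adjusted p = 0.000518) and 1.58 ± 0.27 in saline pups (adjusted p = 0.00108). The catalytic subunits of the replicative polymerases also rose, Pold1 by 0.99 ± 0.18 in MCI-186 pups (SE, limma adjusted p = 0.00156) and 1.18 ± 0.18 in saline pups (adjusted p = 0.000728) and Pole by 1.37 ± 0.20 in MCI-186 pups (SE, limma adjusted p = 0.000444) and 1.15 ± 0.20 in saline pups (adjusted p = 0.00126). Ung, the glycosylase that removes uracil from DNA, rose by 1.05 ± 0.16 in MCI-186 pups (limma adjusted p = 0.000518) and 1.18 ± 0.16 in saline pups (adjusted p = 0.000325). The genes that fell were subunits of the origin recognition complex, Orc4 in both arms, at -0.40 ± 0.08 in MCI-186 pups (limma adjusted p = 0.00285) and -0.23 ± 0.08 in saline pups (adjusted p = 0.0464), and Orc3 in MCI-186 pups, at -0.41 ± 0.14 (limma adjusted p = 0.0308), with -0.03 ± 0.14 in saline pups (adjusted p = 0.882). The difference between the arms did not pass for Orc3, at -0.39 ± 0.20.

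Further mitosis genes of the kinetochore, the spindle midzone and the separation of sister chromatids were among those that rose. Kif2c, a kinesin that takes microtubules apart at the centromere, changed by 2.38 ± 0.30 in MCI-186 pups (SE, limma adjusted p = 0.000196) and 1.84 ± 0.30 in saline pups (adjusted p = 0.00092), and the centromere protein Cenpt by 2.03 ± 0.30 in MCI-186 pups (limma adjusted p = 0.000476) and 1.92 ± 0.30 in saline pups (adjusted p = 0.000756). The securin Pttg1, which restrains chromatid separation, changed by 2.14 ± 0.28 in MCI-186 pups (limma adjusted p = 0.000231) and 1.48 ± 0.28 in saline pups (adjusted p = 0.00186), and Cdca2, which recruits a phosphatase to chromatin, by 2.20 ± 0.29 in MCI-186 pups (limma adjusted p = 0.000251) and 1.67 ± 0.29 in saline pups (adjusted p = 0.00126). Ect2, which sets up the cleavage furrow, changed by 1.94 ± 0.28 in MCI-186 pups (limma adjusted p = 0.000437) and 1.72 ± 0.28 in saline pups (adjusted p = 0.000951). Prc1, the bundling protein of the midzone, was not well above background on any Control + MCI-186 array. It was at least 3.14-fold higher in Rice + MCI-186 pups, by the mean of those pups against the lowest signal well above background or its own signal in the controls. In saline pups the fitted change of Prc1 was 2.15 ± 0.33 (SE, limma adjusted p = 0.000624), with 2 of 3 control arrays well above background. Kif2c and Cdca2 were well above background on 2 of 3 Control + MCI-186 arrays, so their changes in that arm also rest on partly dim controls. The gene that fell was Stmn1, a tubulin-binding protein also abundant in young neurons, at -0.47 ± 0.13 in MCI-186 pups (limma adjusted p = 0.0106) and -0.54 ± 0.13 in saline pups (adjusted p = 0.00585).

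Of 11 regulators of the G1 to S step, 3 rose and 2 fell in MCI-186 pups, a share higher of 27.3% against 25.5% of all named genes. In saline pups 2 rose and 1 fell, a share higher of 18.2% against 24.9% of all named genes. The median change was 0.06 in both arms, and the shares higher lay near those of all named genes. Myc, a growth-promoting transcription factor, changed by 1.19 ± 0.15 in MCI-186 pups (SE, limma adjusted p = 0.000207) and 1.27 ± 0.15 in saline pups (adjusted p = 0.000158), and Mybl2, part of a complex that drives mitosis gene promoters, by 1.60 ± 0.28 in MCI-186 pups (limma adjusted p = 0.00113) and 1.56 ± 0.28 in saline pups (adjusted p = 0.00145). Mycn, a relative of Myc used by dividing neural progenitors, fell in MCI-186 pups, at -0.70 ± 0.13 (limma adjusted p = 0.00179), and was at -0.10 ± 0.13 in saline pups (limma adjusted p = 0.563). A second Mycn probe was at -0.59 in MCI-186 pups and -0.82 in saline pups, so the probes disagreed in saline pups. Cyclin E2, Ccne2, fell in MCI-186 pups, at -0.41 ± 0.11 (limma adjusted p = 0.0105), and was at -0.17 ± 0.11 in saline pups (limma adjusted p = 0.212), and a second Ccne2 probe was at -0.06 in MCI-186 pups and -0.09 in saline pups. Tfdp2, a partner of E2F factors, was at 0.31 ± 0.15 in MCI-186 pups (limma adjusted p = 0.12) and -0.43 ± 0.15 in saline pups (limma adjusted p = 0.0409), a call lost in 10 of 21 alternative analyses. The difference between the arms did not pass for Mycn (-0.60 ± 0.19, limma adjusted p = 0.845) or Tfdp2 (0.73 ± 0.22, limma adjusted p = 0.775). It did not pass for Ccne2 either, at -0.24 ± 0.16.

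Some inhibitors of cyclin-dependent kinases, which stop the cycle, also rose. Of 7 measured, 3 rose and 1 fell in MCI-186 pups, and 4 rose and 1 fell in saline pups. Among all named genes 25.5% rose in MCI-186 pups and 24.9% in saline pups, against 42.9% and 57.1% of these few inhibitors. Cdkn1a, p21, had signals of 123, 102 and 113% in Rice + MCI-186 pups against 58.1, 70.2 and 66.3% in Control + MCI-186 pups, and 104, 116 and 147% in Rice + saline pups against 44.8, 45 and 49.9% in Control + saline pups. All injured pups were above all controls, and Cdkn1a changed by 0.80 ± 0.14 in MCI-186 pups (SE, n = 3 per group, limma adjusted p = 0.00105) and 1.38 ± 0.14 in saline pups (adjusted p = 5.13e-05). Cdkn2c, an inhibitor of Cdk4 and Cdk6, changed by 1.74 ± 0.16 in MCI-186 pups (limma adjusted p = 3.05e-05) and 1.47 ± 0.16 in saline pups (adjusted p = 9.3e-05), and Cdkn1c by 1.95 ± 0.46 in MCI-186 pups (limma adjusted p = 0.00548) and 2.19 ± 0.46 in saline pups (adjusted p = 0.00339). Cdkn2b, another inhibitor of Cdk4, had signals of 3.87, 3.92 and 2.84% in Rice + MCI-186 pups against 9.23, 5.65 and 5.3% in Control + MCI-186 pups, and 3.4, 2.22 and 2.37% in Rice + saline pups against 6.53, 6.48 and 5.71% in Control + saline pups. Here every injured pup was below every control, at -0.89 ± 0.23 in MCI-186 pups (SE, limma adjusted p = 0.00849) and -1.25 ± 0.23 in saline pups (adjusted p = 0.00169).

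The study also asked whether MCI-186 altered the response. In injured pups, 0 of the 25 genes passed between Rice + MCI-186 and Rice + saline by limma, and 0 had an unadjusted p under 0.05. Over all named genes 0.0% passed, and 188 of 9278 (2.03%) had an unadjusted p under 0.05. The log2 differences of the 25 genes, Rice + MCI-186 minus Rice + saline, lay between -0.17 and 0.32. In controls, 0 of the 25 passed between Control + MCI-186 and Control + saline, and 0 had an unadjusted p under 0.05, against 0.14% of all named genes called and 8.08% with an unadjusted p under 0.05. A p that misses the threshold does not show that the groups were alike. The standard errors of these differences ran from 0.12 to 0.48.

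The difference between the injury effects, the MCI-186 arm minus the saline arm, was called for 0 of the 25 genes, with 0 under an unadjusted p of 0.05. Among all named genes 0.0216% were called and 3.79% had an unadjusted p under 0.05. The fitted difference was above 0 for 10 of 11 mitosis genes, with a median of 0.31, and for 4 of 8 replication genes, with a median of -0.0016, against 0.00 over all named genes. Among named genes it was above 0 for 4644 of 9278. Ube2c had the highest of the 25 genes, at 0.57 ± 0.34 (SE, limma adjusted p = 1), followed by Ccnb2 at 0.54 ± 0.42 and Ccnb1 at 0.48 ± 0.41. In the controls, 10 of the 11 mitosis genes were lower with MCI-186 than with saline, none of them called. In that comparison 4910 of 9278 named genes were higher with MCI-186. The 11 genes were measured in the same pups. Control + MCI-186 pup 2 was the lowest of its group for 9 of 11, and pup 1 the highest for 10 of 11. With 1 pup left out at a time the mitosis median of this difference ran from 0.14 to 0.50, and that of the replication genes from -0.09 to 0.17.

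Pups of 1 group differed in the level of the whole set. Rice + saline pup 3 was the highest of its group for 23 of the 25 genes, including all 8 replication and all 11 mitosis genes. Rice + MCI-186 pup 2 was the lowest of its group for 23 of the 25, again with all replication and all mitosis genes, and Rice + MCI-186 pup 1 was the highest for 21. The mean log2 level of the 11 mitosis genes, relative to each gene's mean over the 12 arrays, was 1.09, 0.18 and 0.90 in Rice + MCI-186 pups 1 to 3 and 0.36, 0.49 and 1.00 in Rice + saline pups 1 to 3. In the controls it lay between -0.95 and -0.45. For the 8 replication genes it was 0.76, 0.16 and 0.60 in Rice + MCI-186 pups and 0.35, 0.34 and 0.90 in Rice + saline pups, against -0.61 to -0.41 in controls. The 2 lists thus put the pups of each injured group in nearly the same order.

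**Figure D4:**
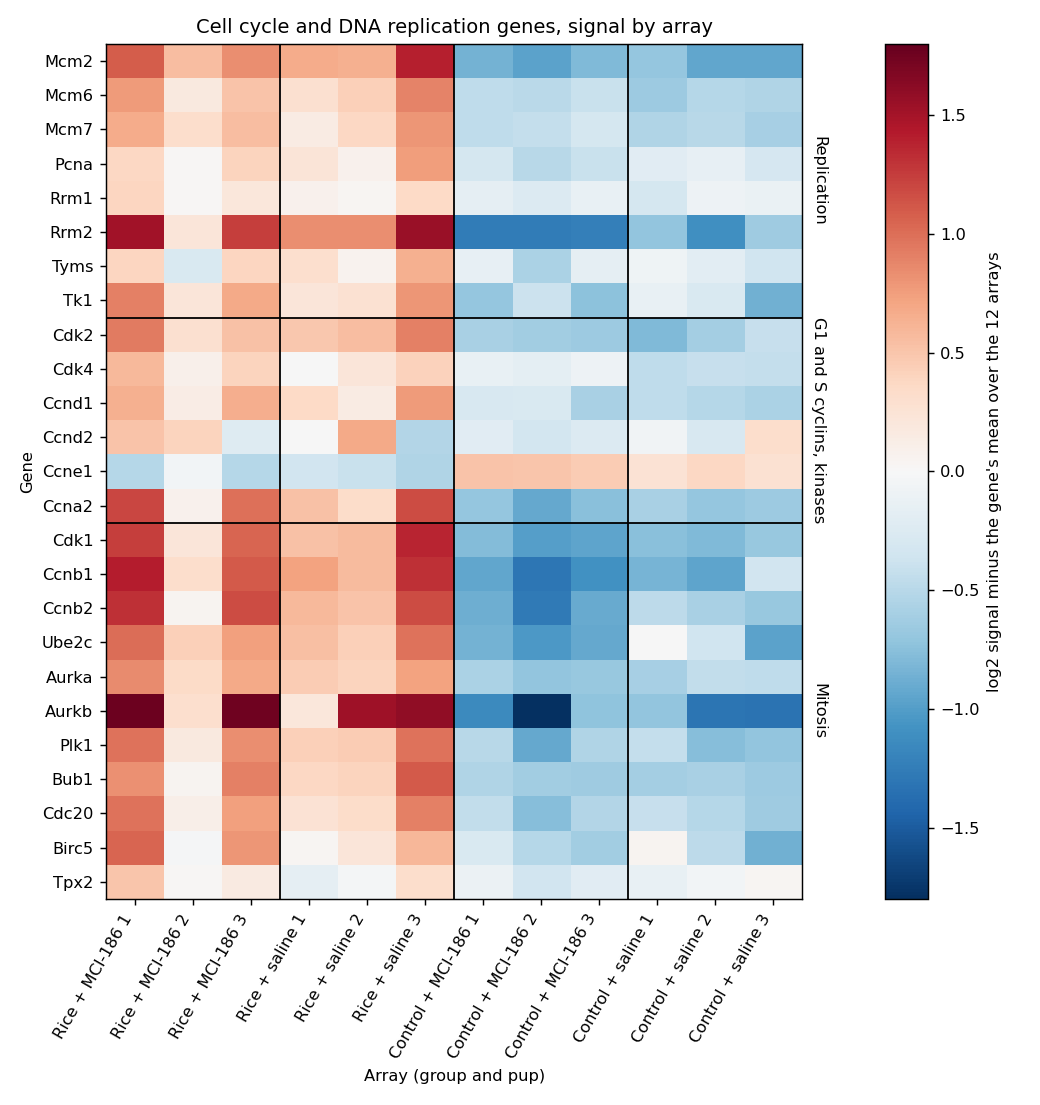
Log2 signal of each of the 25 genes on each of the 12 arrays, relative to the gene's mean over the arrays (red higher, blue lower). The injured pups are mostly red and the controls mostly blue. Ccne1 goes the other way, some genes such as Ccnd2 and Tpx2 are mixed, and Rice + MCI-186 pup 2 is mostly paler than the other pups of its group.

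Markers of several cell types moved with injury beside these genes, and their part in the result was not tested. Of 15 microglia and macrophage markers, 14 rose in each arm, and their summed signal was 28760 to 51450% in Rice + MCI-186 pups against 7684 to 8318% in Control + MCI-186 pups. In saline pups it was 34950 to 49040% in Rice against 6961 to 8197% in Control. The sum was lowest in Rice + MCI-186 pup 2 within its group and highest in Rice + saline pup 3 within its group, as for the cell cycle genes. This order was not particular to microglia and macrophages. The sums of astrocyte, neural progenitor, oligodendrocyte progenitor, mural and fibroblast, and T cell markers had the same lowest and highest pups. Those of neutrophil and endothelial markers did not share both. Of 10 neuron markers 9 fell in each arm, with sums of 10630 to 16150% in Rice + MCI-186 pups against 22640 to 23090% in Control + MCI-186 pups, and 9754 to 15000% in Rice + saline pups against 21430 to 24080% in Control + saline pups. Rice + MCI-186 pup 2 had the highest neuron sum of the injured pups.

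Glial, vascular and blood cell markers were mixed. Among 8 astrocyte markers, 6 rose and 1 fell in MCI-186 pups, and 5 rose and 1 fell in saline pups. Their median log2 change was 0.76 in MCI-186 pups and 0.68 in saline pups. The glial filament gene Gfap had the highest change of the 8, at 4.98 ± 0.20 in MCI-186 pups (limma adjusted p = 9.66e-07) and 4.51 ± 0.20 in saline pups (adjusted p = 8.87e-07). The marker that fell was Slc1a2, at -0.81 ± 0.13 in MCI-186 pups (limma adjusted p = 0.000673) and -0.73 ± 0.13 in saline pups (adjusted p = 0.0013). Among 9 markers of neural progenitors and neuroblasts, 5 rose and 1 fell in each arm, and their summed signal was 7607 to 13650% in Rice + MCI-186 pups against 2728 to 3010% in Control + MCI-186 pups, and 8940 to 13340% in Rice + saline pups against 2775 to 3123% in Control + saline pups. Most of that sum was 1 gene, Fabp7, a fatty acid binding protein of radial glia and astrocytes. The other 8 markers together gave 1429 to 2099% in Rice + MCI-186 pups against 1258 to 1338% in Control + MCI-186 pups, and 1561 to 2089% in Rice + saline pups against 1152 to 1207% in Control + saline pups. Of 6 markers of oligodendrocyte progenitors, 2 rose and 2 fell in MCI-186 pups and 3 rose in saline pups, and their sums overlapped in the MCI-186 arm, at 3667 to 4512% in Rice against 4280 to 4473% in Control. In the saline arm the sums did not overlap, at 4141 to 4551% in Rice against 3729 to 4121% in Control. Of 7 mural and fibroblast markers 6 rose and 1 fell in each arm, and of 7 endothelial markers 2 rose and 3 fell in each arm. Among all named genes 25.5% rose and 31.5% fell in MCI-186 pups, and 24.9% rose and 30.4% fell in saline pups. Beside these, 28.6% of the endothelial markers rose and 42.9% fell in each arm. Of the oligodendrocyte progenitor markers 33.3% rose and 33.3% fell in MCI-186 pups, and 50% rose in saline pups. With 6 or 7 markers per list, such shares say little about those cells.

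Of 7 T cell markers with a named probe 4 passed the filter on dim probes. The 2 of them that were well above background on all 12 arrays rose in both arms. Cd8a and Cd4 were also called higher, but were not well above background on any control array. The filter thus kept Cd8a and Cd4 through injured pups alone, which favoured a rise. Of 4 neutrophil markers that passed the filter, 1 rose in MCI-186 pups (25%) and 3 in saline pups (75%), against 25.5% and 24.9% of all named genes. Csf3r was well above background on 1 of 3 Control + MCI-186 and 0 of 3 Control + saline arrays, and S100a8 on 1 of 3 in each. The filter thus kept these genes through injured pups alone too, which favoured a rise. Where they were called, injured and control pups overlapped for S100a8 in the saline arm and for Csf3r in the MCI-186 arm. The gene among these 4 neutrophil markers that was well above background on all 12 arrays, Camp, passed in neither arm, at 0.61 ± 0.66 in MCI-186 pups (SE, limma adjusted p = 0.461) and 0.44 ± 0.66 in saline pups (adjusted p = 0.602). The summed neutrophil signal in Rice + saline pup 3 was 194.9%, against 43.5% and 32.8% in Rice + saline pups 1 and 2. Within its group that pup also had the highest signal for every replication and mitosis gene.

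**Figure D5:**
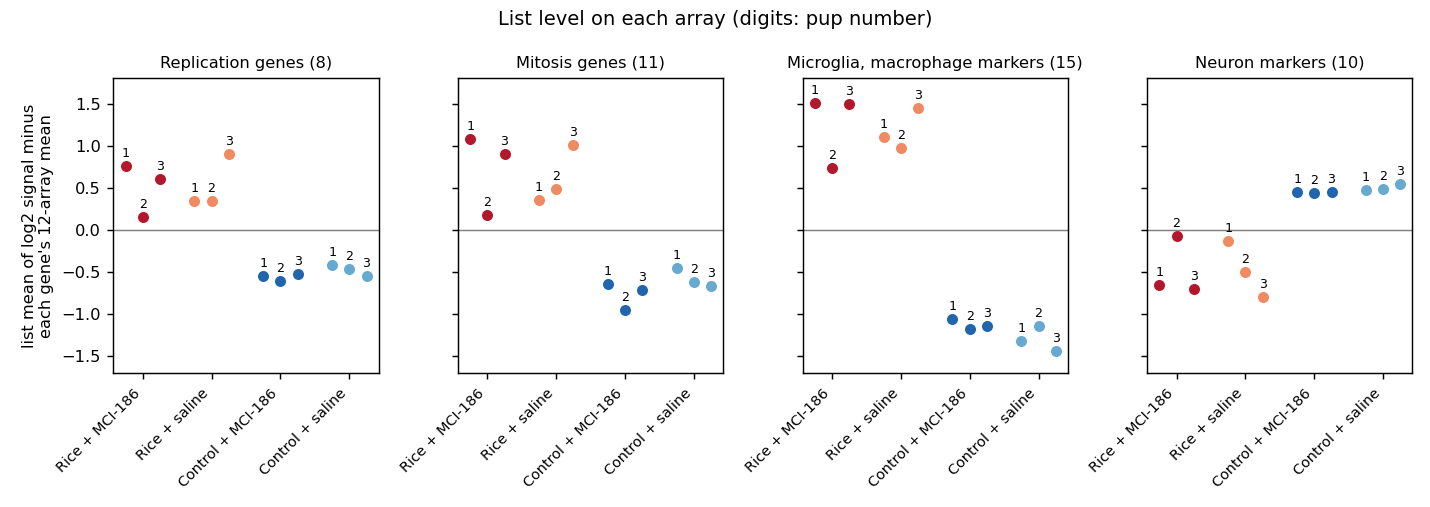
Mean over a list of the log2 signal relative to each gene's mean over the 12 arrays, for each pup (digits give the pup number), for replication genes, mitosis genes, microglia and macrophage markers, and neuron markers. Rice + MCI-186 pup 2 is the lowest injured pup of the first 3 panels and the highest of the neuron panel.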

How the data were processed

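RNA from the cortex of 12 rat pups, 3 in each of 4 groups named by the labels, was labelled with Cy3 and hybridised to 1-colour Agilent arrays, per the labels' protocols. The deposited scanner files hold spot intensity from which, per the file headers, Agilent Feature Extraction 9.5.3.1 had subtracted the background. A deposited table of log2 values correlated with the recomputed ones at 0.999 or more and is centred on the median of each probe, with column medians between -0.12 and 0.12. It was used as an alternative. How the authors normalized it is not given.

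Each array's processed signal was divided by its 75th percentile (920 to 1258), floored at 0.005 of it and put on the log2 scale. Outlier spots and control spots were dropped (193 missing values). A probe was kept if every array of some group had it well above background (28518 of 41012). RefSeq accessions of GRCr8 named 15184 probes, 25828 stayed unnamed, and the brightest probe stood for a gene. Promoter windows came from RefSeq's table for GRCr8, and probe positions were not used.

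A model of 4 group means was fitted with limma 3.58.1 in R 4.3.3 (8 residual degrees of freedom) to 9278 named genes and 16606 unnamed probes, with Benjamini-Hochberg adjustment over both. Python 3.11.15 was used for tables and figures. The script was tested on simulated data. Named were all genes of the set, and of each other list up to 4 genes with the lowest adjusted p per injury comparison. Genes that fell in a list, Gfap, Fabp7, Camp, Csf3r, S100a8, Cd8a and Cd4 were named after their values were seen. The members and lists were chosen with earlier results of these data known. Alternatives were normexp background correction on the median spot signal (offset 50), quantile normalization, the value table, 2 other filters, the mean of a gene's probes, a floor of 0.02, a replicate block, only the groups compared, and each pup left out.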

Additional observations from a re-analysis of the deposited data

How the results depend on the processing

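Over 21 alternatives, 22 of the 25 genes kept their call in the MCI-186 arm and 20 kept it in the saline arm, and 0 reversed. The calls that changed were those of Rrm1, Tyms and Tpx2 in the MCI-186 arm, and of Pcna, Rrm1, Tyms, Tk1 and Birc5 in the saline arm. With 1 pup left out, 20 to 23 genes rose in the MCI-186 arm and 17 to 22 in the saline arm, and 1 fell in each. For all named genes, MCI-186 in controls gave 13 calls, but 6 with normexp correction, 8 with only probes well above background on all 12 arrays, and 8 to 21 with 1 pup left out. MCI-186 in injured pups gave 0 calls, and 0 to 3 with 1 pup left out. The difference between the injury effects gave 2 calls, but 1 with normexp correction, the value table, no filter or the stricter filter, 0 with the mean of a gene's probes, and 1 to 5 with 1 pup left out. The median change of the 11 mitosis genes in saline pups was 0.884 with normexp correction. That of the further mitosis genes was 0.600 in MCI-186 pups and 0.652 in saline pups with normexp correction, and 0.814 and 0.799 with the stricter filter, which tests fewer genes. The cause of the other shifts was not tested. Leaving out 1 pup moved the medians of the mitosis genes over 1.16 to 1.56 in MCI-186 pups and 1.00 to 1.36 in saline pups, of the replication genes over 0.82 to 1.05 and 0.73 to 1.04, of the further mitosis genes over 1.03 to 1.39 and 0.87 to 1.17, and of the further replication genes over 0.19 to 0.33 and 0.22 to 0.36. Pups with the same number in different groups were not treated as pairs in the main model. Of 18 same-numbered pairs, 2 had deviations that correlated over 0.1 (range -0.28 to 0.54). Pairs with different numbers ranged from -0.55 to 0.50. With 3 pups per group, such correlations cannot exclude pairing. With the replicate number as a block, 23 genes rose in the MCI-186 arm and 20 in the saline arm, with 1 lower in each, and named genes gave 7 calls for MCI-186 in controls and 1 for the difference between the injury effects. Slide as a block was not run, since each slide held 1 group.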
